A study of Gallus gallus and Dromaius novaehollandiae with 14 samples.

Results

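The subject here is a set of 100 genes that had their lowest level in feather-forming skin, and a higher level in all 3 kinds of foot skin, in both the emu and the chicken. They were chosen from 8751 genes by their measured values. The score of a gene in a species was the lowest of its claw, reticulate scale and scutate scale means minus its feather mean, on the log2(TPM + 1) scale, where TPM is an abundance unit corrected for transcript length and taken as a share of its library. A gene had to reach a TPM of 5 in all 10 foot libraries, which 4593 genes did. Of these, 858 had a score above 0 in emu, 542 in chicken and 226 in both. The last number changed with the scaling of the libraries, as given at the end. The 226 were ranked by the smaller of their scores, and the first 100 are the members. The scores and every foot-over-feather difference are therefore given as a description, without a test.

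The libraries were made from polyadenylated RNA of embryonic epidermis, freed from the dermis with dispase. The emu groups were claw (1 library), reticulate scale (1), scutate scale (2) and feather (2), and the chicken groups were the same appendages with 2 libraries each. The labels describe each sample as epidermis of a placode tract and name no mutation, transgene or drug. They place the feather samples at Hamburger and Hamilton stage 33 to 34, claw at 36, scutate scale at 37 and reticulate scale at 39 in both birds. Appendage and stage cannot be told apart, nor can body region and appendage, and incubation at 35.5 °C for emu and 37.8 °C for chicken goes with species. The labels do not say whether replicates came from separate embryos, so p-values measure only the spread between these libraries, which may be technical.

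Feathers and scutate scales each begin as a placode, a local thickening of the epidermis that exchanges signals with the dermis beneath it. Scutate scales are the overlapping plates of the shank and upper toes, reticulate scales are the small bumps of the sole, and the claw forms a hard sheath at the toe tip. All of these later fill with keratins and corneous proteins, while feather buds grow out into branched filaments. The table identifies genes by Ensembl chicken IDs without names, and the RefSeq gene table used here pairs none of these IDs with a symbol. No role is therefore given to any member, the labelled tissue could not be checked against epidermal markers, and few IDs are printed. In bulk tissue, fewer cells of a type and less RNA per cell cannot be told apart.

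The foot-over-feather difference was large in few of the members. The smaller score was above 1, a doubling in both birds, in 10 members. It lay between 0.5 and 1 in 22, between 0.25 and 0.5 in 34, and at 0.25 or less in 34. The emu score ran from 0.16 to 4.80 with a median of 0.43, which is 1.34-fold. In chicken the score ran from 0.16 to 3.15 with a median of 0.58, which is 1.49-fold. The member at rank 100 had scores of 0.49 in emu and 0.16 in chicken, while the gene at rank 101, just outside, had 0.16 and 0.15. The median residual SD of the members was 0.25 log2 units, against 0.19 for the 7563 genes that entered the tests. The smaller score exceeded the gene's own residual SD in 76 members and exceeded 2 SD in 36. The members were chosen on this score. The SD is shared over all 8 groups and is not the error of the score, so these counts are no test.

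**Figure D1:**
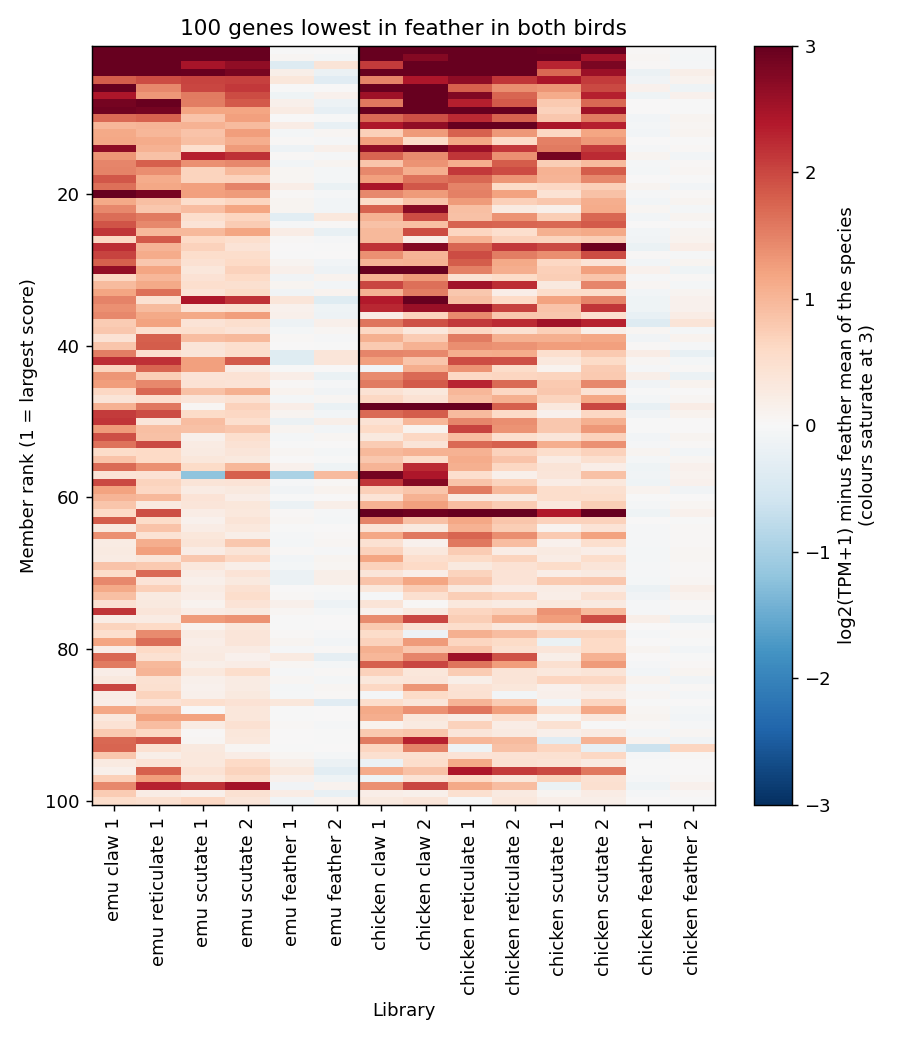
Level of each member (rows, by rank) in each library (columns), as log2(TPM + 1) minus the feather mean of the same species; emu libraries stand left of the black line and chicken libraries right of it. Red is above feather, and the red of the foot columns is strongest in the 10 highest ranks and pale in most ranks past 50.

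The libraries of single members often kept apart. In 78 members every foot library was above every feather library of its species in both birds, while 22 members had an overlap in at least 1 species. The same held for 2.13% of the 4593 genes that met the TPM minimum, but the members were chosen on these values and nothing is read from that contrast. Among ranks 1 to 50 there were 47 members without overlap, and among ranks 51 to 100 there were 31.

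The member with the largest smaller score was ENSGALG00000010923. Its TPM was 986 in the emu claw library, 108 in the emu reticulate scale library, 39.4 and 68.1 in emu scutate scale, and 0.898 and 0.901 in emu feather. In chicken it was 631 and 490 in claw, 235 and 151 in reticulate scale, 22.9 and 30.9 in scutate scale, and 2.16 and 2.06 in feather. The order claw, reticulate scale, scutate scale, feather was thus the same in both birds, with no overlap between neighbouring groups. Its score was 4.80 in emu (27.8-fold) and 3.15 in chicken (8.87-fold), and scutate scale, the lowest foot appendage, set both. These folds, like all folds of scores and tests here, are of TPM + 1. The plain ratio of the mean TPM in scutate scale to that in feather was 59.8 in emu and 12.7 in chicken.

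The next member, ENSGALG00000008250, had a flatter foot profile. Its TPM was 72.1 in emu claw, 93.3 in emu reticulate scale, 59.7 and 75.9 in emu scutate scale, and 4.62 and 4.16 in emu feather. In chicken it was 79.9 and 66.8 in claw, 118 and 116.1 in reticulate scale, 97.8 and 56.6 in scutate scale, and 9.50 and 8.64 in feather. Foot skin was high throughout and feather low in both birds, whereas the chicken claw and scutate scale libraries overlapped. The score was 3.67 in emu and 2.88 in chicken.

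Over the 10 highest-ranked members, the score corresponded to between 2.07-fold and 27.8-fold in emu, with a median of 3.37-fold. In chicken it corresponded to between 2.27-fold and 8.87-fold, with a median of 3.58-fold. Claw was the highest foot appendage for 6 of these 10 in emu and 7 in chicken, and scutate scale was the lowest for 7 in each bird. A foot minimum of TPM 10 in place of 5 would leave out ranks 3, 5, 7 and 9, whose lowest foot values lay between 5.05 and 9.88 TPM.

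**Figure D2:**
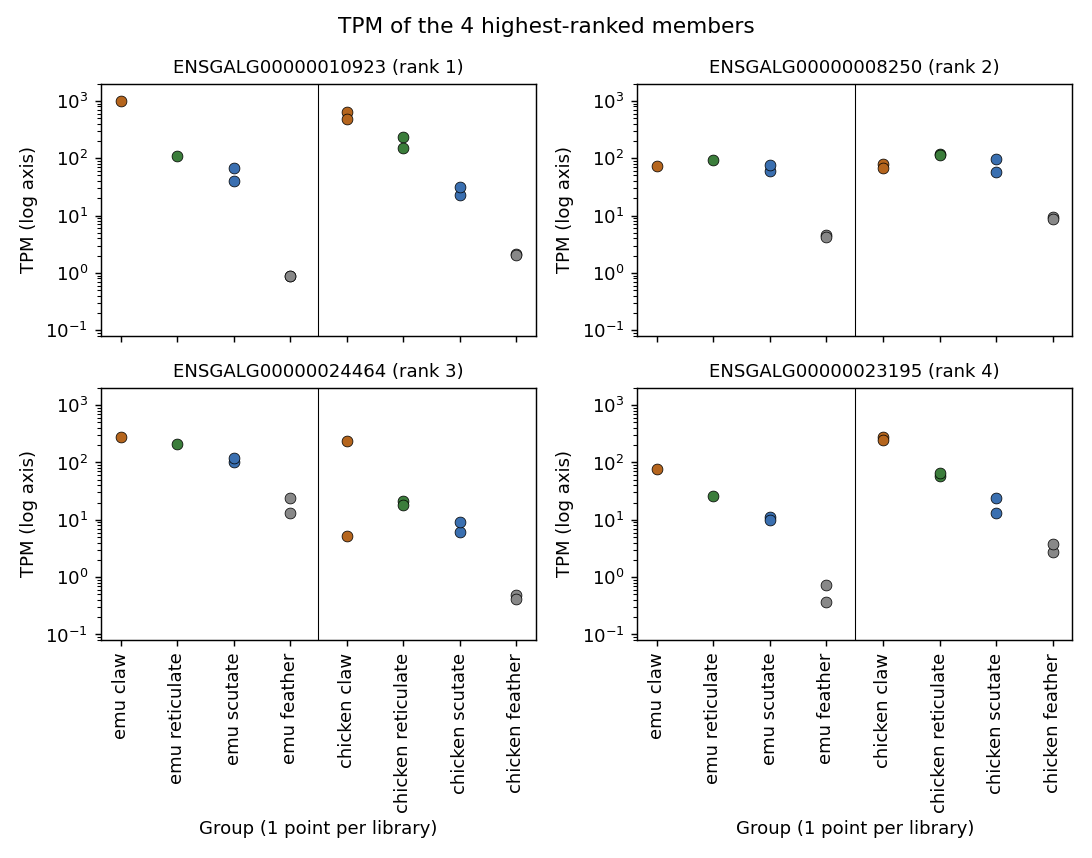
TPM on a log axis of the 4 highest-ranked members, 1 point per library, by group, with emu left of the line and chicken right of it. Feather is the lowest group of its species in each panel, and the chicken claw points of the third panel lie far apart, at 5.28 and 237 TPM.

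Replicates disagreed for some of the high-ranked members. ENSGALG00000024464, at rank 3, had a TPM of 237 in chicken claw replicate 2 but 5.28 in replicate 1. Its other chicken values were 21.6 and 17.8 in reticulate scale, 6.15 and 9.33 in scutate scale, and 0.492 and 0.421 in feather. In emu it stood at 277 in claw, 212 in reticulate scale, 102.8 and 117 in scutate scale, and 13.4 and 23.6 in feather. Emu feather was thus as high as or higher than several chicken foot libraries, and the low feather level was a difference within each bird.

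The feather level of the members covered a wide range. In emu feather, 5 members averaged under a TPM of 5 and 11 reached 100 or more; in chicken feather these numbers were 10 and 12. No member was listed at 0 in any library. The most abundant member, at rank 100, averaged 2900 TPM in emu claw, 2828 in emu reticulate scale, 2843 in emu scutate scale and 2024 in emu feather. In chicken it averaged 3124, 2778 and 2797 in claw, reticulate scale and scutate scale, and 2476 in feather. It differed by a small factor at a very high level, whereas the member at rank 1 differed by a large factor from a low one. Not all of the first 10 were low in feather. The member at rank 10 averaged 129 TPM in emu feather and 138 in chicken feather.

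Summed over the members, TPM was highest in claw and lowest in feather in both birds. The sum was 17810 in emu claw, 13757 in emu reticulate scale, 10380 and 10456 in emu scutate scale, and 6667 and 7010 in emu feather. In chicken the sums were 15662 and 17483 in claw, 15464 and 13870 in reticulate scale, 10808 and 12402 in scutate scale, and 7190 and 7465 in feather. The members made up 3.24% of the listed TPM in emu claw and between 1.21% and 1.27% in emu feather, and between 3.13% and 3.35% in chicken claw and between 1.30% and 1.33% in chicken feather. The 5 most abundant members held 6556 of the sum in emu claw and between 2969 and 3247 in emu feather. Without them the sum was 11254 in emu claw and between 3698 and 3763 in emu feather, and 9353 and 10587 in chicken claw and between 3334 and 3537 in chicken feather.

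**Figure D3:**
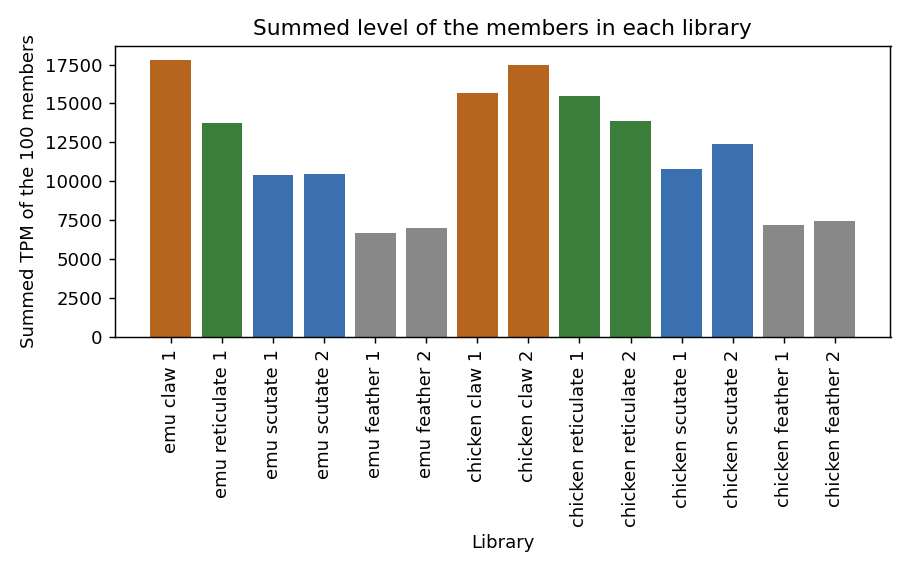
Summed TPM of the 100 members (bars, from 0) in each of the 14 libraries, coloured by appendage. The 4 feather libraries hold the lowest sums, from 6667 to 7465, and the emu claw library the highest, 17810.

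In some groups many members also moved the same way between replicates. The rule did not rank by this difference, but it used the means of these same libraries and so may bear on the counts. The counts are set against all tested genes, not the genes that met the TPM minimum, and nothing is read from the gap. In chicken scutate scale, 72 of the 100 members were higher in replicate 2 than in replicate 1, against 53.8% of the tested genes, with a median difference of 0.25 log2 units against 0.03. In chicken reticulate scale only 19 members were higher in replicate 2, against 36.7% of the tested genes, with a median of -0.31 against -0.08. In emu scutate scale 75 members were higher in replicate 2, against 62.2%, with a median of 0.12 against 0.07. In the other 3 replicated groups the count was closer to the share of the tested genes. It was 65 in chicken feather, against 64.0%, 60 in chicken claw, against 59.6%, and 44 in emu feather, against 39.0%. Their medians were 0.06 against 0.05, 0.17 against 0.10, and -0.04 against -0.04. The median of chicken claw thus also lay above that of the tested genes. What differs between these replicates is not given in the labels, and its part in the foot-over-feather differences was not tested.

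The scores of the birds were not equal for every member. The emu score was the larger in 39 members and the chicken score in 61. A gap of more than 1 log2 unit was seen in 3 members with the larger score in emu and 5 with the larger score in chicken. The widest gap, picked out after the values were seen, was that of the member at rank 62, with a score of 0.27 in emu and 3.06 in chicken. Its TPM was 17.8 in emu claw, 46.6 in emu reticulate scale, 13.4 and 14.4 in emu scutate scale, and 11.7 and 11.1 in emu feather. In chicken it was 37.2 and 29.8 in claw, 77.3 and 50.9 in reticulate scale, 20.6 and 54.2 in scutate scale, and 2.75 and 3.48 in feather. Reticulate scale held the highest mean in both birds, and the emu feather level lay well above that of the chicken.

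**Figure D4:**
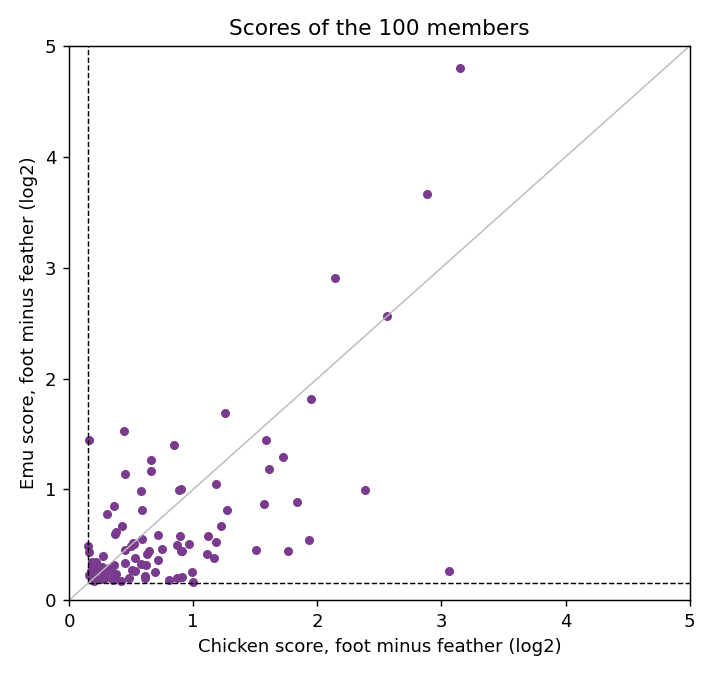
Emu score (vertical axis) against chicken score (horizontal axis) of the 100 members, both in log2 units, with the lowest member score dashed and equality in grey. Most points crowd near the dashed lines, and few members lie above 1 on both axes.

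Next, the members were compared among the foot appendages. Claw was the highest foot appendage for 56 members in emu and 48 in chicken, against 34.5% and 19.3% of the genes that met the TPM minimum. Reticulate scale was highest for 36 and 43, against 36.3% and 30.8%, and scutate scale for 8 and 9, against 29.2% and 49.9%. Claw was highest in both birds for 32 members (11.3% of those genes), reticulate scale for 21 (15.2%) and scutate scale for 1 (18.2%). Scutate scale was the lowest foot appendage in both birds for 41 members, against 5.33% of the genes that met the TPM minimum. The rule bears on these profiles. It asked every foot mean to exceed the feather mean, while the median gene that met the TPM minimum was below feather by 0.11 log2 units in emu claw and 0.39 in chicken claw, and by 0.05 and 0.03 in scutate scale. A member had to stand above feather in claw, which the median gene did not. Nothing is therefore read from the gap between these counts, or those of the next 3 contrasts, and their backgrounds.

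The 32 members highest in claw in both birds summed to 10312 TPM in emu claw, 6121 in emu reticulate scale, 5294 and 4876 in emu scutate scale, and 3191 and 3548 in emu feather. In chicken they summed to 8809 and 9706 in claw, 5950 and 6043 in reticulate scale, 4789 and 5463 in scutate scale, and 3765 and 3883 in feather. The 21 members highest in reticulate scale in both birds included none of the 5 most abundant members. Their sum was 2074 TPM in emu reticulate scale, 1475 in emu claw, 1181 and 1295 in emu scutate scale, and 714 and 674 in emu feather. In chicken it was 2837 and 2387 in reticulate scale, 1808 and 1877 in claw, 1507 and 1762 in scutate scale, and 681 and 728 in feather. A few abundant genes carried a large part of the sum of the members highest in claw. Without the 5 most abundant members, the other 29 of them summed to 5706 TPM in emu claw and 3638 and 3963 in chicken claw. These genes were picked for having their highest foot mean in claw, so a highest sum in claw is no separate result. In chicken reticulate scale they summed to 1916 and 1630 TPM, and in emu reticulate scale to 2488. The 29 and the 21 members differ in number and were picked on these values, so their sums are not compared.

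In chicken, claw differed from scutate scale in 36 members (limma adjusted p under 0.05), with 28 higher and 8 lower in claw. Of all tested genes 48.7% were called, 10.7% higher and 38% lower. The median difference was 0.25 log2 units over the members and -0.29 over all tested genes. ENSGALG00000010923, described above, was 20.2-fold higher in claw (log2 4.33, SE 0.28, limma adjusted p 1.64e-05). ENSGALG00000023195 had a TPM of 280 and 244 in chicken claw, against 13.0 and 24.2 in chicken scutate scale, a 13.99-fold difference (log2 3.81, SE 0.26, limma adjusted p 2.16e-05). In the emu the values of this gene were 76.7 in the claw library and 11.03 and 10.03 in scutate scale.

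Lower in claw was ENSGALG00000004033, with a TPM of 5.16 and 5.997 in chicken claw and 13.51 and 10.2 in chicken scutate scale (log2 -0.96, SE 0.16, limma adjusted p 0.00136). ENSGALG00000017041 was the only member highest in scutate scale in both birds. Its TPM was 19.97 and 15.6 in chicken claw, 26.8 and 15.2 in reticulate scale, 44.8 and 28.6 in scutate scale, and 5.67 and 4.91 in feather. Claw lay below scutate scale by log2 -0.98 (SE 0.28, limma adjusted p 0.0166), and in 5 of the alternative settings this was not called, with adjusted p up to 0.149. The scaling matters for this contrast. The 2 chicken claw libraries had the lowest medians over tested genes, at 14.9 and 16.8 TPM, against 21.1 to 24.6 in the other 12, and after median-ratio rescaling 59 members were called, 57 of them higher in claw. The calls over all genes also turned with that rescaling, to 21.3% higher and 20.2% lower, with a median of 0.64 over the members and 0.03 over all tested genes.

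Claw and reticulate scale of the chicken differed in 35 members, 17 higher and 18 lower in claw, where 46.2% of all tested genes were called, 10.9% higher and 35.3% lower. ENSGALG00000009129 had a TPM of 850 and 661 in chicken claw, against 173 and 132 in chicken reticulate scale, a 4.94-fold difference (log2 2.30, SE 0.22, limma adjusted p 0.000103). The gene showed a like pattern in the emu, with 770 in claw and 125.96 in reticulate scale. Also higher in chicken claw than in chicken reticulate scale was ENSGALG00000023195 (log2 2.08, SE 0.26, limma adjusted p 0.000334). ENSGALG00000005321 was lower in chicken claw, at 50.5 and 35.5 TPM, against 137 and 85.6 in reticulate scale (log2 -1.33, SE 0.25, limma adjusted p 0.00238). ENSGALG00000016289 was also lower there, at 24.2 and 20.2 TPM in claw and 61.5 and 48.8 in reticulate scale (log2 -1.27, SE 0.23, limma adjusted p 0.00219). The balance of directions was not stable. After median-ratio rescaling 37 members were called higher and 4 lower in claw, against 21.9% and 20.5% of all tested genes. Without chicken reticulate scale replicate 1, 22 members and 2492 of all 7563 genes were called.

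Reticulate scale of the chicken was higher than scutate scale in 13 members by limma, and 0 members were called lower, where 7.63% of all tested genes were called, 3.6% higher and 4.03% lower. At an unadjusted p under 0.05, 4 members were lower. The member at rank 1 was 6.87-fold higher in reticulate scale (log2 2.78, SE 0.28, limma adjusted p 0.000906). ENSGALG00000005842 had a TPM of 57.7 and 44.2 in chicken reticulate scale, against 5.59 and 22.8 in chicken scutate scale (log2 2.04, SE 0.48, limma adjusted p 0.0351). Its scutate scale replicates were far apart, and it was not called in 12 of the alternative settings, with adjusted p up to 0.248. In emu, reticulate scale was above the scutate scale mean for 13 of the 13 called members. This was so for 75 of the 97 genes that met the TPM minimum and were called higher. Of all 272 tested genes called higher, it held for 180. The rule asked every foot mean to exceed feather in both birds, so nothing is read from the gap. The calls over all tested genes fell as well in the fits that follow, from 577 to 0 in the last. The count of 13 called members rested on few libraries. It was 5 without scutate scale replicate 1, 2 without reticulate scale replicate 1 and 0 in a fit of only these 4 libraries.

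The emu, with 1 claw and 1 reticulate scale library, allowed no test among foot appendages. Claw was at least 2-fold above scutate scale for 31 members and at least 2-fold below it for 1, where 5.91% and 7.88% of all tested genes passed these limits. Claw was at least 2-fold above reticulate scale for 19 members and below it for 7, where 6.16% and 11.6% did. Reticulate scale was at least 2-fold above scutate scale for 19 members and below it for 3, where 5.12% and 3.25% of all tested genes did. Of the 28 members called higher in chicken claw than in chicken scutate scale, 26 were also higher in emu claw than in emu scutate scale (92.9%). This was so for 77.3% of the 375 genes that met the TPM minimum and were called the same way, and for 65.3% of all 810 genes called the same way. The rule asked every foot mean to exceed feather in both birds, so nothing is read from the gap. Across the 100 members, the claw minus scutate scale difference of the emu correlated with that of the chicken at r = 0.51, and for reticulate minus scutate scale r was 0.42. Over the 4593 genes that met the TPM minimum r was 0.39 and 0.26. Each r runs across genes, and all genes of a panel share the same libraries. The rule bears on the 2-fold counts and on r as well. Nothing is therefore read from their gap to the other genes.

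**Figure D5:**
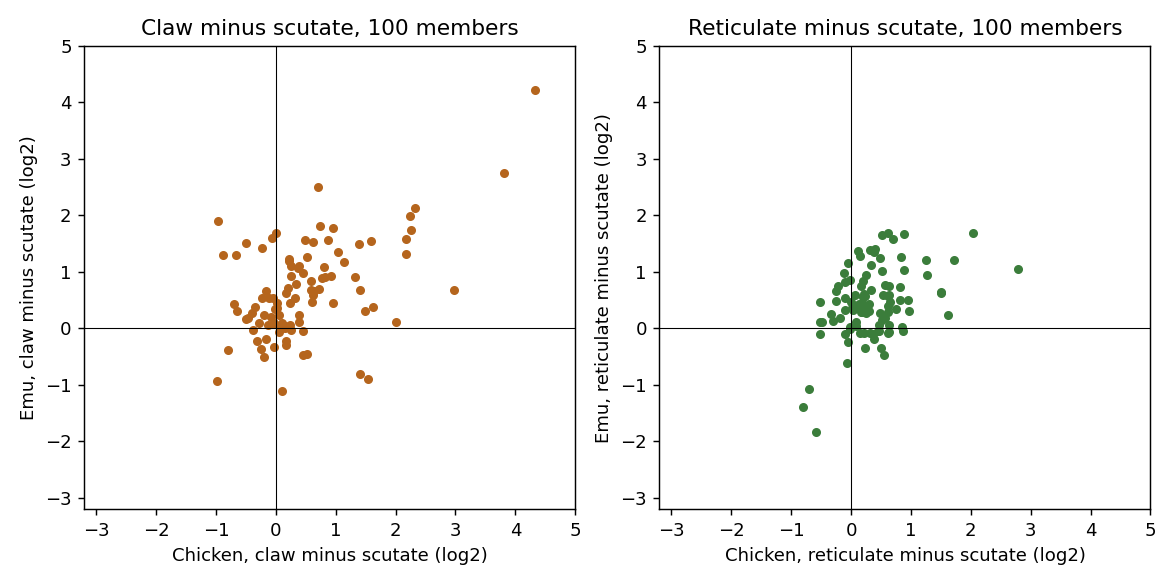
Emu difference (vertical axes) against chicken difference (horizontal axes) of each member, in log2 units, for claw minus scutate scale and for reticulate scale minus scutate scale. More points lie in the upper right part than in the lower left, and the emu claw and reticulate values rest on 1 library each.

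Last, the members were compared between the birds, a difference by which the rule did not rank them. In feather, 57 members differed between emu and chicken by limma, 26 higher and 31 lower in emu, where 62.4% of all tested genes were called, 32.8% higher and 29.6% lower. In scutate scale 55 members differed, 19 higher and 36 lower in emu, where 63.3% were called, 34.1% higher and 29.2% lower. Of the genes that met the same TPM minimum as the members, 60.5% were called in feather and 61.1% in scutate scale. The shares called in either direction were thus near both backgrounds in both appendages. The median difference of the members was -0.02 log2 units in feather and -0.19 in scutate scale, against 0.04 and 0.05 over all tested genes. Counted without a test, at least 2-fold apart were 36 members in feather (36.7% of all tested genes), 37 in scutate scale (37.8%), 29 in claw (39.7%) and 38 in reticulate scale (40.1%). Of the genes that met the TPM minimum, fewer were this far apart, at 23.7% in feather, 24.8% in scutate scale, 29.0% in claw and 27.0% in reticulate scale. Set against these genes the member counts were higher in feather, scutate and reticulate scale and equal in claw, a difference that was not tested. The reticulate scale and claw values have no replicate in emu.

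Calls in feather and in scutate scale could be set side by side. In both of these appendages, 15 members were called higher and 28 lower in emu, against 25.4% and 24.1% of the genes that met the TPM minimum, while 1 member was called in opposite directions, against 0.414%. Over all 4 appendages, 26 members were higher in emu throughout and 31 lower throughout, against 37.1% and 25.7% of those genes. At least 2-fold apart in every appendage were 8 members higher and 7 lower in emu, against 7.40% and 3.33%. These shares are given as a description, and the members were not tested against the other genes. In feather, ENSGALG00000016152 had a TPM of 282 and 280 in emu, against 16.6 and 22.5 in chicken, a 13.9-fold difference (log2 3.79, SE 0.31, limma adjusted p 7.00e-06). ENSGALG00000024464 was higher in emu feather as well, at 13.4 and 23.6 TPM, against 0.492 and 0.421 in chicken (log2 3.69, SE 1.26, limma adjusted p 0.0285). Its SE takes in the spread of every replicated group, including chicken claw at 5.28 and 237 TPM. In 4 of the alternative settings this gene was not called.

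Lower in emu feather was ENSGALG00000012790, with a TPM of 18.9 and 16.8 in emu and 197 and 220 in chicken (log2 -3.47, SE 0.19, limma adjusted p 4.03e-07). ENSGALG00000014687 had 4.26 and 5.72 TPM in emu feather and 62.8 and 66.4 in chicken feather (log2 -3.46, SE 0.15, limma adjusted p 1.01e-07). Both were lower in emu scutate scale too, by log2 -3.47 and -3.38. In scutate scale, ENSGALG00000013817 was higher in emu, at 39.2 and 52.7 TPM, against 6.67 and 5.74 in chicken (log2 2.69, SE 0.35, limma adjusted p 0.000137). The largest called difference there was that of ENSGALG00000024464, also higher in emu (log2 3.69, SE 1.26, limma adjusted p 0.0279). In 4 of the alternative settings it was not called. All of these genes nevertheless kept feather as the lowest appendage in each bird, as the rule required. How emu transcripts were given chicken IDs is not stated in the sources used here, and its part in the species differences was not tested. Only the emu columns are named as scaled, and the part of that scaling was not tested either.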

How the data were processed

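RNA sequencing was done on 14 libraries of emu and chicken embryonic epidermis, put into 8 groups by their titles. The authors deposited 1 table of 8751 genes, whose values are taken here to be square roots of TPM. The header does not state this. It was inferred, since the squares of each emu column sum to 550000, and those of the chicken columns to between 500783 and 575133. The names of the emu columns end in ggemu_scaled and those of the chicken columns do not. What this scaling was is not stated in the sources used here. Per the submitters' processing notes, CASAVA, TopHat2 2.0.6 and HTSeq 0.5.3p9 were used, with no role given. The genome builds are not given in the sources used here. TPM keeps no read number, so the depth is unknown and no interval or detection limit was computed.

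Values were squared and analysed as log2(TPM + 1), which understates differences of low genes. Genes reaching a TPM of 1 in 2 or more libraries (7563) were tested with limma 3.58.1 in R 4.3.3 (8 group means, 6 residual degrees of freedom, eBayes with a trend, Benjamini-Hochberg over all tested genes, called at an adjusted p under 0.05). All 100 members entered. The members, contrasts and alternatives were chosen with earlier results of these data known. Genes are named by a rule on the rank and, for each contrast, the 2 called members with the largest difference in each direction. Fewer genes were named than had been planned. Planned gene lists by symbol could not be applied, because no source used here pairs the IDs with symbols. The planned foot-over-feather tests were left out, since they served those lists and the rule used the contrast. The limma script was also tested on simulated data with known changes. The simulation drew independent noise around equal group means, with few changed genes and no shift in scaling. It was a check of the code and bears on none of the calls given here. Python 3.11.15, numpy 2.4.6, pandas 2.3.3 and matplotlib 3.10.9 were used.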

Additional observations from a re-analysis of the deposited data

Results flagged for a closer look

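A few members named above moved in opposite directions in the birds, in every library, when foot appendages were compared. Only named members were looked at, and opposite signs of the means were common among all members. The sign was shared by both birds in 67 members for claw minus scutate scale and 61 for claw minus reticulate scale. For reticulate minus scutate scale it was shared in 71. The other genes were not counted in this way. The difference between the birds was not tested, and the emu claw and reticulate scale values rest on 1 library each. ENSGALG00000004033 was higher in claw than in scutate scale in emu (log2 1.89) and lower in chicken (-0.96), a gap of 2.85. Its claw minus reticulate scale difference was 1.79 in emu and -0.47 in chicken, a gap of 2.26, and its reticulate minus scutate scale difference 0.11 and -0.49, a gap of 0.59. Its TPM of 57.5 in emu claw stands above 14.5 to 15.9 in the other emu foot libraries. For ENSGALG00000005321 the claw minus scutate scale difference was 0.42 in emu and -0.69 in chicken (gap 1.12), and claw minus reticulate scale was 0.36 and -1.33 (gap 1.70). ENSGALG00000012790 differed between claw and reticulate scale by 0.97 in emu and -0.44 in chicken (gap 1.41).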

How the results depend on the processing

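Membership kept between 70 (mean of the foot means in place of the lowest) and 99 (pseudocount 0.1) of the 100 genes over 7 other settings, and between 88 and 98 when 1 library was left out; the emu claw and reticulate scale libraries cannot be left out of the rule. In all 19 settings, 42 members stayed among the first 100, 37 of them from ranks 1 to 50 and 6 from the first 10, since a foot minimum of TPM 10 drops ranks 3, 5, 7 and 9. The number of genes with a score above 0 in both birds was less stable. It was 226 in the main setting, 482 after median-ratio rescaling and 410 after quantile normalization. With a foot minimum of TPM 10 it was 190, and with the mean of the foot means 833. Requiring an absolute log2 difference of at least 1 gave 16 called members for chicken claw against scutate scale and 13 for claw against reticulate scale. It gave 6 for reticulate against scutate scale, and 33 in feather and 35 in scutate scale between the birds. The share of all tested genes under this limit was not counted. A fit of only the groups compared gave 11, 15 and 0 for the chicken foot contrasts, with fewer libraries for the spread. Of all tested genes it called 1198, 1095 and 0. Between the birds it called 38.9% higher and 35.7% lower in emu feather over all tested genes, and 33.3% and 29.0% in scutate scale. Over the 10 settings other than leaving out 1 library, 33 to 75 members were called between the birds in feather and 35 to 60 in scutate scale. Median-ratio rescaling gave 59 for claw against scutate scale. Leaving out 1 library gave 24 to 41, 22 to 42 and 2 to 19 called members in the foot contrasts, and 43 to 64 and 43 to 61 between the birds in feather and scutate scale. An arm left with 1 library was assumed to vary like the other groups. Of 416 values of named genes under the alternatives, 388 stayed called in the same direction, 28 were no longer called and 0 reversed. Where a setting changed only the filter, the model or a library outside the contrast, the difference itself stayed fixed. Its direction could not reverse there, so the 0 is in part set by the choice of settings. The labels do not say that a replicate number is shared between groups. With the replicate number as a block, 37, 37 and 11 members were called in the foot contrasts and 54 and 57 between the birds. Of all tested genes, 3586, 3412 and 515 were then called in the foot contrasts. Between the birds 32.4% were higher and 29.0% lower in emu feather, and 33.7% and 29.0% in emu scutate scale. Crossed numbers, chosen after seeing the data, gave 17 members and 574 of all tested genes in reticulate against scutate scale. Same-numbered deviations there correlated at -0.228. Scaling to a common total was also added after seeing the data.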
